A study of Arabidopsis thaliana with 8 samples.

Results

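The small RNA loci described here are the mid-length loci of the Arabidopsis chromosome arms that were counted in every phloem exudate library. They were chosen by position, length and count: loci over 200 and under 2000 nt long, starting outside a pericentromeric window on each chromosome, overlapping no annotated miRNA precursor and no TAS gene (a source of trans-acting siRNAs), and holding at least 10 counts in each of the 8 libraries. Of the 20347 loci in the deposited table, 2649 met these limits, and 2638 were kept after 11 highly counted loci were set aside (the members). The counts that chose the members are therefore a description and not a finding. The minimum took no account of treatment, but it limits how low a member can be in either group. Loci that missed it in a single library did so most often in +Fe replicates 2 and 4. The choice thus removed more loci low in +Fe than loci low in −Fe.

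The libraries were made from phloem exudates of wild-type Arabidopsis thaliana, accession Col-0. Seedlings were moved to fresh medium lacking iron (−Fe) or to fresh medium containing it (+Fe) for 3 days, after growth of both groups on iron-containing medium. There were 4 biological replicates of −Fe and 4 of +Fe, each pooled from many rosettes that had been cut below the hypocotyl and left to exude after EDTA treatment. Exudate is an acellular, dilute source, and fewer cells contributing RNA cannot be told apart from less RNA per cell.

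Small RNA reads from chromosome arms come from several kinds of source. RNA polymerase IV and RNA-dependent RNA polymerase 2 make precursors that Dicer-like 3 cuts into siRNAs, which guide DNA methylation of transposons and other repeats. Other arm loci are inverted repeats, or transcripts copied into double-stranded RNA after cleavage by a miRNA. Structural RNAs such as tRNAs, small nuclear RNAs (snRNAs, parts of the spliceosome) and small nucleolar RNAs (snoRNAs, which guide rRNA modification and processing) also leave short fragments, and tRNA fragments are well known from phloem sap. Iron status in shoots is sensed in and near the phloem, where bHLH transcription factors, nicotianamine synthases and metal transporters act.

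Libraries held 10347644 to 14116739 counts. The number of loci with a count was lowest in +Fe replicate 4 (11269) and +Fe replicate 2 (12117), against 14214 to 16201 in the 4 −Fe libraries and 14291 to 14585 in the other +Fe libraries. Among the 11355 mid-length arm loci open to the count minimum, 415 missed it only in +Fe replicate 4 and 208 only in +Fe replicate 2, whereas 14 to 72 missed it only in any other library. Where a scale is needed, CPM is a locus's count divided by its library's total and put on the usual scale, and TMM-scaled CPM divides in addition by edgeR's composition factor for the library, which was 0.743 in −Fe replicate 4 and between 0.908 and 1.17 in the others. Genes that mark companion cells and sieve elements had almost no small RNA: 2 of 8 listed genes touched a locus, 22 counts were found there in all libraries together, and 0 touched a member. All 11 listed mesophyll photosynthesis genes touched a locus, with 21573 counts in all, and 3 of them touched a member. A list of mRNA markers says little about small RNA origin, and the part of RNA from cut leaf cells in the results was not tested.

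The members held 7168418 counts, 7.42% of all counts. Their median total was 986 counts over the 8 libraries (range 140 to 810474), and their median length was 851.5 nt (range 202 to 1999 nt). Abundance was uneven: 68 members held 50% of the counts, and the 10 with the highest mean level held 33.9%. The median distance from a member to the nearest other member was 9017 nt, and only 11 overlapped a longer locus. Mid-length arm loci passed the minimum at a similar rate on every chromosome, from 21.1% on chromosome 3 to 25.7% on chromosome 2. The rate was 17.5% below 500 nt and between 24.0% and 25.4% in the longer length classes. The 8717 mid-length arm loci under the minimum had a median of 50 counts over all libraries and held 0.848% of all counts.

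At the edge of the rule, 40 members had exactly 10 counts in their lowest library and 57 loci were left out with exactly 9. The lowest totals at that edge were 140 counts for ath-b10r1-3468 and 145 counts for ath-b10r1-15249. Just outside, ath-b10r1-15194 (757 counts) and ath-b10r1-10343 (745 counts) each had 9 in their lowest library. The shortest members were ath-b10r1-16185 (202 nt) and ath-b10r1-15912 (203 nt), and the nearest loci too short were ath-b10r1-3213 (198 nt) and ath-b10r1-7487 (196 nt). The longest were ath-b10r1-14248 (1999 nt) and ath-b10r1-16886 (1995 nt), while ath-b10r1-10544 and ath-b10r1-14120 reached the limit of length.

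By overlap of at least 1 nt with an annotated gene on either strand, 108 members lay at tRNA genes, 104 at snRNA or snoRNA genes, 989 at protein-coding genes, 247 at other genes (long non-coding RNA genes and pseudogenes mainly) and 1190 at no gene. A locus at a structural RNA gene was counted there even where a protein-coding gene also overlapped it, as happened at 75 of the tRNA and 56 of the snRNA or snoRNA members. None lay at a nuclear rRNA gene of the annotation. Gene class and count were linked in the choice itself: 80% of mid-length arm loci at snRNA or snoRNA genes and 46.4% of those at tRNA genes passed the minimum, against 41.8% at no gene, 40.0% at other genes and 13.1% at protein-coding genes. The tRNA members, 4.09% of the loci, held 25.6% of the members' counts, and the snRNA or snoRNA members held 8.17%. Protein-coding members held 38.6%, members at no gene 22.4% and members at other genes 5.26%. A single locus, ath-b10r1-5653, held 810474 of the 2764687 counts at protein-coding members.

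Most tRNA members, 102 of 108, covered 1 tRNA gene and the other 6 covered 2. The snoRNA members were more often clusters, with 58 of 104 covering at least 2 snRNA or snoRNA genes and up to 6. Per length, the structural classes were the more densely counted, with a median of 32.2 CPM per kb for tRNA members and 33.7 CPM per kb for snRNA or snoRNA members, against 13.9 at no gene, 12.1 at other genes and 10.2 at protein-coding genes. Among the tRNA members, 8 loci at glutamic acid tRNA genes held 44.5% of the counts, 11 at glycine tRNA genes 21.7% and 11 at alanine tRNA genes 10.7%. The glutamic acid loci took 45.0% ± 3.95 of tRNA member counts in −Fe and 43.1% ± 3.66 in +Fe (SD, n = 4 each). The order of the leading tRNAs among the members was the same in both groups. It is not the order of the exudate as a whole, since the 11 highly counted loci set aside held 28531306 counts. Over all tRNA reads the paper reports glycine as the most abundant isotype, followed by alanine and glutamic acid.

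The most abundant member was ath-b10r1-5653 (chromosome 2, 12334635 to 12335236, TAIR10), overlapping AT2G28755, a protein-coding gene. It held 133019, 119379, 74441 and 77861 counts in −Fe replicates 1 to 4, against 107380, 84532, 103325 and 110537 in +Fe replicates 1 to 4. The groups overlapped fully, with −Fe replicate 1 the highest and −Fe replicate 3 the lowest. Its level was 9108 ± 3185 TMM-scaled CPM in −Fe and 7908 ± 1143 in +Fe (SD, n = 4 each), a log2 fold change of 0.20 ± 0.25 (SE), or -0.07 without −Fe replicate 1.

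The next members were mainly tRNA loci. A locus at a glutamic acid tRNA gene, AT3G50665, beside U1-70K, which codes for a spliceosomal protein, was second: ath-b10r1-9904 (chromosome 3, 18825961 to 18826283) held 26066, 75059, 66750 and 41868 counts in −Fe, against 35715, 56171, 72449 and 30291 in +Fe. Each group thus held both a low library and a high one. The third, ath-b10r1-13953 (chromosome 5, 18558522 to 18558923), lay at the glycine tRNA gene AT5G45745 and was steadier, with 28789, 40720, 39595 and 46426 counts in −Fe, against 43673, 32296, 49898 and 30004 in +Fe. Other loci of the leading 10 lay at glutamic acid tRNA genes (ath-b10r1-1700 and ath-b10r1-9934), at alanine tRNA genes beside NPL41 (ath-b10r1-10568) and at adjoining tRNA genes for aspartic acid and valine (ath-b10r1-16018). The remaining 3 were counted as protein-coding members. They included ath-b10r1-19741 at AT1G73650 and a pseudogene, and ath-b10r1-15911 at AT1G05163, AT1G15410 and the non-coding RNA gene AT1G15405. The last, ath-b10r1-11131, overlapped both G6PD2, a glucose-6-phosphate dehydrogenase, and Pnsl5, a subunit of the chloroplast NADH dehydrogenase-like complex.

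All 10 leading members had positive log2 fold changes on the TMM scale, 0.10 to 0.62, but only 7 of them did when libraries were scaled to their totals (-0.14 to 0.32). An unadjusted edgeR p under 0.05 was reached only by ath-b10r1-15911 (chromosome 1, 5297863 to 5298365). It held 11828, 9671, 25282 and 25291 counts in −Fe, against 12779, 8281, 21243 and 15137 in +Fe. Replicates 3 and 4 of −Fe were the highest of all and replicate 2 of both groups the lowest, so the groups overlapped. The log2 fold change was 0.62 ± 0.30 (SE), with an unadjusted p of 0.0497, an edgeR adjusted p of 0.645 (Benjamini-Hochberg) and an exact permutation p of 0.343 (two-sided, TMM-scaled CPM).

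The question put to the members was whether their small RNAs differed between −Fe and +Fe exudate. Together they made up 6.94%, 8.46%, 7.15% and 5.93% of the counts in −Fe replicates 1 to 4, against 6.58%, 8.35%, 7.88% and 8.43% in +Fe replicates 1 to 4. The groups overlapped, with the lowest share in −Fe replicate 4. The mean share was 7.12% ± 1.04 in −Fe and 7.81% ± 0.855 in +Fe (SD, n = 4 each), and the difference of -0.691 percentage points was smaller than either SD. It was -0.294 without −Fe replicate 4, -0.483 without +Fe replicate 4, -1.14 without −Fe replicate 2 and -1.10 without +Fe replicate 1. For the members outside the structural RNA classes alone, the difference was -0.735 percentage points. Members at no gene took 1.48% ± 0.335 of all counts in −Fe and 1.88% ± 0.281 in +Fe, and members at other genes 0.351% ± 0.0646 in −Fe and 0.437% ± 0.0548 in +Fe. Protein-coding members, the largest class by share, took 2.76% ± 0.506 in −Fe and 3.02% ± 0.412 in +Fe. Shares at tRNA members (1.92% ± 0.356 in −Fe, 1.87% ± 0.329 in +Fe) and at snRNA or snoRNA members (0.599% ± 0.0470 in −Fe, 0.609% ± 0.0576 in +Fe) were nearly level.

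**Figure D1:**
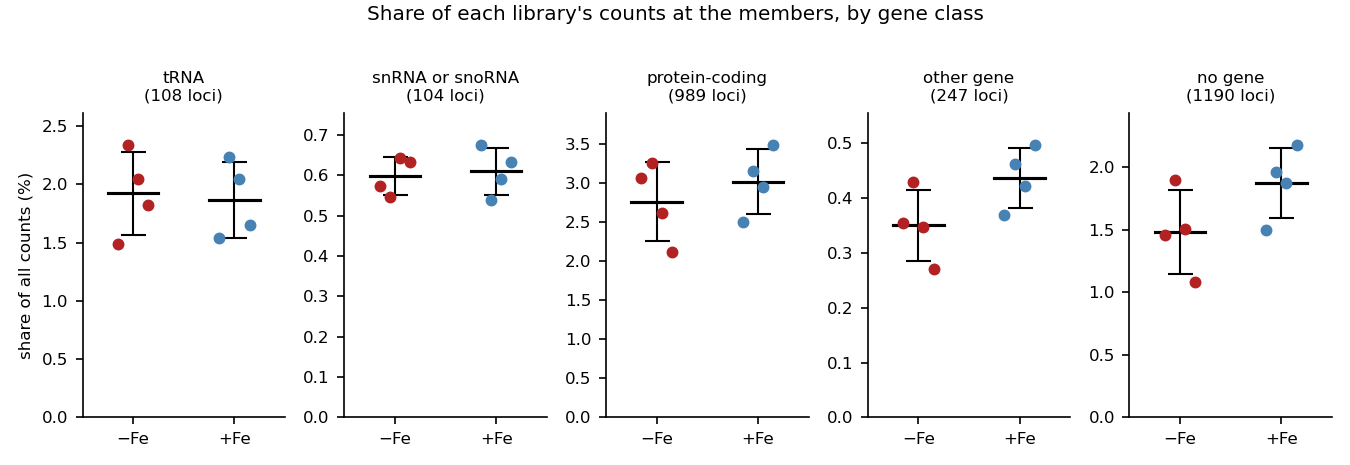
Share of each library's counts (%, y axes from 0, a scale for each panel) held by the members of each gene class, with −Fe libraries in red and +Fe libraries in blue. Points are the 4 libraries of a group, the thick bar is the mean and the whiskers are the SD; the groups overlap in every class, and at members of no gene the mean was 1.48% in −Fe and 1.88% in +Fe.

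Locus by locus, no member was called by edgeR with treatment alone in the model. The edgeR quasi-likelihood fit over 17722 loci with at least 10 counts in all called 0 loci (Benjamini-Hochberg adjusted p under 0.1, with a log2 difference no smaller than 0.5 in either direction), a background of 0%, and 0 of the 2638 members, whose smallest adjusted p was 0.645. DESeq2 called 34 loci, a background of 0.197% of those it tested, 1 of them a member (0.0380%). At an unadjusted p under 0.05, DESeq2 had 50 members (1.90%) higher and 143 (5.43%) lower, against backgrounds of 4.67% and 2.65%. In edgeR, 27 members (1.02%) at that unadjusted p were higher in −Fe, against a background of 4.86% of all loci tested, and 68 (2.58%) were lower, against a background of 1.83%. All 4 −Fe libraries lay above all 4 +Fe libraries for 27 members (1.02%; background 2.19%), and below them for 58 members (2.2%; background 0.892%), on TMM-scaled CPM.

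The split between higher and lower depended on scaling. With libraries scaled to their totals, 4 members (0.152%) were higher and 162 (6.14%) lower at an unadjusted p under 0.05, against backgrounds of 3.88% and 3.31%. The median log2 fold change of all loci tested was 0.07 with TMM factors and -0.12 with library totals, so levels are best read relative to it. The members' median was -0.12 with TMM factors and -0.31 with library totals, that is, -0.18 and -0.19 relative to all loci tested. Without +Fe replicates 2 and 4, the libraries with the fewest counted loci, the members' median was -0.03, or -0.10 relative to all loci, and 74 members were higher (2.81%; background 3.48%) and 58 lower (2.2%; background 1.42%) at an unadjusted p under 0.05. Single libraries moved these counts too: 33 members were lower without −Fe replicate 4 (background 1.17%). The number higher was 41 without −Fe replicate 2 (background 3.81%), 56 without +Fe replicate 1 (5.58%), 52 without +Fe replicate 2 (3.5%) and 47 without +Fe replicate 4 (3.49%).

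Loci of other kinds that met the same minimum had similar medians. For 1064 pericentromeric loci of the same length class the median log2 fold change was -0.16, with 8 higher (0.752%) and 30 lower (2.82%) at an unadjusted p under 0.05. For 709 arm loci of at least 2000 nt it was -0.06, with 11 higher (1.55%) and 24 lower (3.39%). The 7245 tested mid-length arm loci under the minimum had a median of 0.41, with 581 higher (8.02%) and 127 lower (1.75%). Those loci could drop to 0 counts in some libraries, which the members by their choice could not. The minimum also fell unevenly on the groups: 415 loci missed it only in +Fe replicate 4 and 208 only in +Fe replicate 2, against at most 72 in any other library. Loci low in +Fe, and so higher in −Fe, were left out more often. Any effect of this on the members' medians and counts was not tested. No test of these differences between sets was made.

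Gene classes within the members lay on different sides of 0 on the TMM scale, though not with library totals. The median log2 fold change was 0.19 for tRNA members, 0.17 for snRNA or snoRNA members, -0.11 for protein-coding members, -0.16 for members at other genes and -0.16 for members at no gene with TMM factors, but with library totals every class was negative, -0.03 for tRNA and -0.05 for snRNA or snoRNA members included. Relative to all loci tested, tRNA members stood at 0.12 with TMM factors and 0.09 with library totals, and members at no gene at -0.23 with TMM factors and -0.24 with library totals. On the TMM scale 79 of 108 tRNA members and 77 of 104 snRNA or snoRNA members had positive values, against 388 of 1190 members at no gene. Reads that map to several tRNA loci can be shared among them, so these are not counts of independent loci. At an unadjusted p under 0.05 the tRNA members counted 6 higher (5.56%) and 1 lower, the snRNA or snoRNA members 5 higher (4.81%) and 0 lower, the protein-coding members 12 higher (1.21%) and 32 lower (3.24%), the members at other genes 0 higher and 5 lower (2.02%), and the members at no gene 4 higher (0.336%) and 30 lower (2.52%). Over all loci tested of the same class, 4.85% of tRNA loci, 3.01% of snRNA or snoRNA loci, 7.08% of protein-coding loci, 1.45% at other genes and 2.09% at no gene were higher, and 0.606%, 1.2%, 1.89%, 1.67% and 1.99% lower, so the tRNA count was close to its background. These backgrounds include the members themselves. The 5 snRNA or snoRNA loci that were higher among the 166 tested are the same 5 members. With adjusted p at 0.645 or above, no member passed the test.

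**Figure D2:**
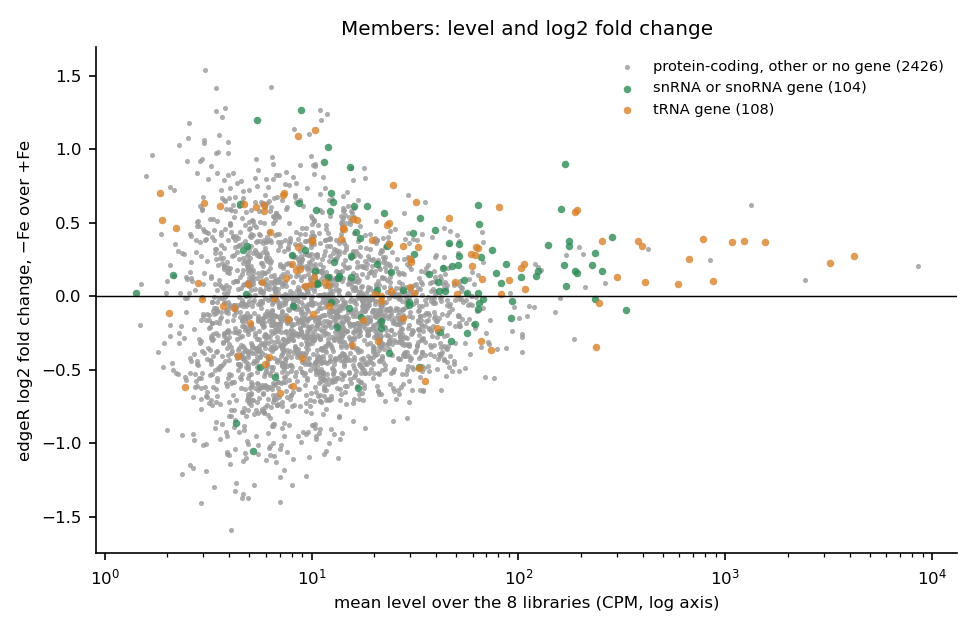
Mean level of each member over the 8 libraries (CPM, log axis) against its edgeR log2 fold change, −Fe over +Fe, on the TMM scale, with tRNA members in orange (108), snRNA or snoRNA members in green (104) and the rest in grey. Fold changes narrow as the level rises, and the members with the highest levels, mostly tRNA loci, lie slightly above 0 on this scale, where 0 of the 2638 were called.

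Libraries of the same treatment also differed from each other. For each member, the deviation in a library was taken as its log2 value there (TMM-scaled CPM plus 1) minus its mean over all libraries. The median deviation of the snRNA or snoRNA members was 0.03, -0.25, 0.17 and 0.44 in −Fe replicates 1 to 4, against 0.34, -0.32, -0.20 and -0.19 in +Fe replicates 1 to 4. Replicate 2 of both groups was the lowest here, and −Fe replicate 4 and +Fe replicate 1 the highest. The tRNA members ran otherwise, at 0.09, 0.25, -0.06 and 0.18 in −Fe, against -0.11, 0.24, -0.25 and -0.25 in +Fe, with replicate 2 of both groups the highest. Members at no gene ranged from -0.16 in −Fe replicate 4 to 0.18 in +Fe replicate 4 and stayed between -0.01 and 0.05 elsewhere. On library totals, −Fe replicate 4 was the lowest library at 1059 members and +Fe replicate 4 the highest at 902.

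**Figure D3:**
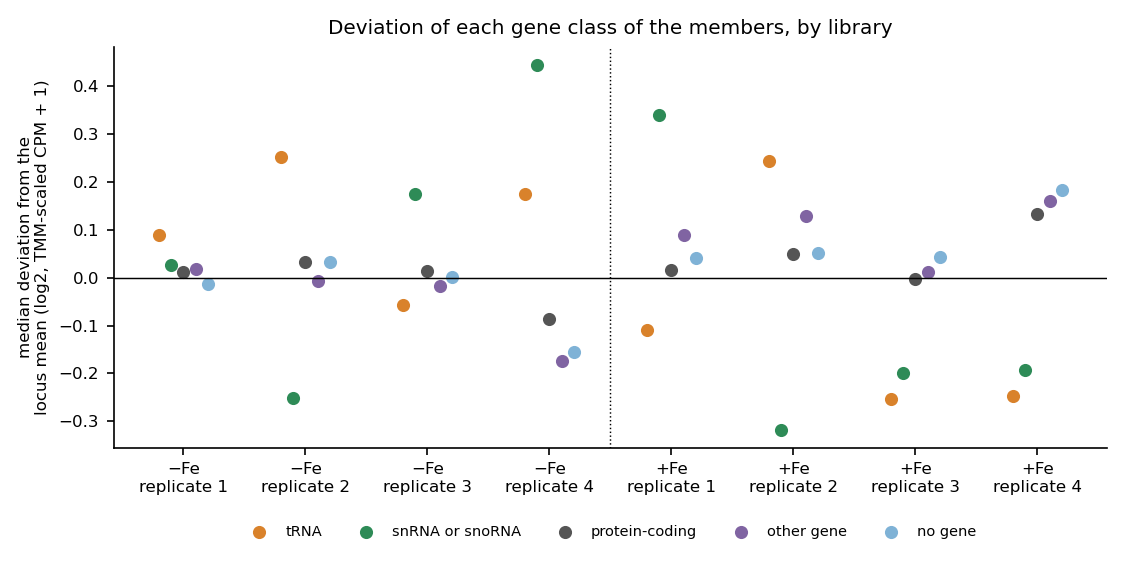
Median over the members of each gene class of the deviation from the locus mean (y axis, log2 of TMM-scaled CPM plus 1), by library (x axis, −Fe replicates left of the dotted line, +Fe replicates right of it). The snRNA or snoRNA members (green) span -0.32 to 0.44 and the tRNA members (orange) -0.25 to 0.25, both within and between groups, while the other 3 classes stay closer to 0.

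Replicate spread set what could be seen. The within-group SD of log2(CPM + 1) had a median of 0.50 over the members, against 0.58 over all loci tested. The coefficient of variation had a median of 49.4% in the 664 members with the fewest counts and 28.4% in the 660 with the most. The SE of the log2 fold change had a median of 0.40 for members and 1.26 for all loci tested. All loci tested include many with few counts, which the count minimum kept out of the members. The contrasts of SD and SE with all loci thus follow at least in part from the choice. The value added before the log also lowers the SD at loci with few counts. The steadiest member was a cluster of snoRNA genes, ath-b10r1-16691 (chromosome 1, 10300213 to 10301897), with an SD of 0.06. It held 2031, 2462, 2136 and 2391 counts in −Fe, against 2731, 2129, 2597 and 1942 in +Fe, values that follow the library totals. On TMM-scaled CPM it was less even, at 202.8 ± 33.1 in −Fe and 181.9 ± 21.9 in +Fe (SD, n = 4 each). Another snoRNA cluster, ath-b10r1-6034, ath-b10r1-20078 at 2 non-coding genes, and ath-b10r1-9647 and ath-b10r1-10356 at no gene were the next steadiest, with SDs of 0.09 to 0.11.

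The least steady members included loci at NFU2 and FNR1, genes of plastid proteins. The largest SD, 1.36, belonged to ath-b10r1-19509 (chromosome 1, 25892106 to 25892701) at AT1G68875, which held 288, 188, 74 and 43 counts in −Fe, against 133, 148, 15 and 12 in +Fe. Replicates 1 and 2 were above replicates 3 and 4 in each group. NFU2, a plastid iron-sulfur cluster scaffold, was the gene at ath-b10r1-14258 (chromosome 5, 20316385 to 20317374), with 303, 194, 32 and 59 counts in −Fe, against 120, 146, 85 and 16 in +Fe. Its 4 highest values were in replicates 1 and 2 of both groups. A locus at FNR1, the leaf ferredoxin-NADP reductase, ath-b10r1-15115, ranged from 30 to 108 counts in −Fe and from 12 to 173 in +Fe. The 2 others, ath-b10r1-4948 and ath-b10r1-5511, lay at no gene and were highest in +Fe replicate 4, with 263 and 288 counts.

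The 5 members with the smallest p among those higher in −Fe were at DRM2, a snoRNA pair, RING1B and 2 tRNA genes. DRM2 (AT2G33830), a dormancy-associated gene, lay at ath-b10r1-5938 (chromosome 2, 14309523 to 14310388), with 108, 232, 218 and 220 counts in −Fe, against 101, 97, 54 and 113 in +Fe. On TMM-scaled CPM all 4 −Fe libraries were above all 4 +Fe libraries, although on library totals −Fe replicate 1 lay within the +Fe range. The level was 17.2 ± 4.87 TMM-scaled CPM in −Fe and 7.29 ± 2.59 in +Fe (SD, n = 4 each). The log2 fold change was 1.24 ± 0.36 (SE), with an unadjusted p of 0.00189 and an edgeR adjusted p of 0.645; the exact two-sided permutation p was 0.0286, the smallest that 4 against 4 libraries can give, and 0.0571 on library totals.

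RING1B (AT1G03770), a Polycomb repressive complex 1 component, lay at ath-b10r1-15350 (chromosome 1, 944056 to 944681). It held 118, 226, 222 and 159 counts in −Fe, against 133, 71, 116 and 28 in +Fe. All −Fe libraries exceeded all +Fe libraries on both scales, with +Fe replicate 4 the lowest by far. The level was 15.9 ± 3.09 TMM-scaled CPM in −Fe and 6.59 ± 3.35 in +Fe, and the log2 fold change was 1.26 ± 0.39 (SE; edgeR adjusted p = 0.645), or 0.82 without +Fe replicates 2 and 4.

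A pair of snoRNA genes, AT1G05907 and AT1G05917, lay at ath-b10r1-16440 (chromosome 1, 8756164 to 8756592). It held 2587, 1911, 2475 and 2983 counts in −Fe, against 2508, 1028, 2122 and 839 in +Fe. The groups overlapped, since +Fe replicates 1 and 3 exceeded −Fe replicate 2 on TMM-scaled CPM, and +Fe replicates 2 and 4 were the lowest. The level was 230.6 ± 76.0 TMM-scaled CPM in −Fe and 123 ± 56.5 in +Fe, with a log2 fold change of 0.90 ± 0.28 (SE; edgeR adjusted p = 0.645), or 0.46 (unadjusted p = 0.115) without +Fe replicates 2 and 4.

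The tRNA loci were a valine locus, ath-b10r1-7166 (chromosome 3, 3575708 to 3576256), and a proline locus, ath-b10r1-16185 (chromosome 1, 7082662 to 7082863). The valine locus held 2007, 4135, 2144 and 2007 counts in −Fe, against 1792, 2058, 2171 and 1631 in +Fe. Its groups were separate on TMM-scaled CPM, with an exact permutation p of 0.0286, but overlapped on library totals, with an exact permutation p of 0.286. The log2 fold change was 0.57 ± 0.20 (SE). The proline locus held 168, 236, 80 and 174 counts in −Fe, against 63, 44, 164 and 84 in +Fe, and overlapped through −Fe replicate 3 and +Fe replicate 3. Its log2 fold change was 1.13 ± 0.40 (SE).

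The 5 members with the smallest p among those lower in −Fe included 3 at no gene. The first, ath-b10r1-18203 (chromosome 1, 18033225 to 18034157), held 102, 173, 162 and 116 counts in −Fe, against 238, 244, 312 and 365 in +Fe. Every −Fe library was below every +Fe library on both scales. The level was 12.1 ± 1.62 TMM-scaled CPM in −Fe and 22.6 ± 5.47 in +Fe (SD, n = 4 each). The log2 fold change was -0.90 ± 0.28 (SE), with an unadjusted p of 0.00345, an edgeR adjusted p of 0.645 and an exact permutation p of 0.0286.

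The protein-coding gene AT2G21920 covered ath-b10r1-5110 (chromosome 2, 9344030 to 9345590), with 111, 365, 261 and 207 counts in −Fe, against 509, 404, 495 and 440 in +Fe. The groups were separate, and −Fe replicate 1 was the lowest. The level was 20.1 ± 5.93 TMM-scaled CPM in −Fe and 35.9 ± 3.13 in +Fe, a log2 fold change of -0.83 ± 0.26 (SE; edgeR adjusted p = 0.645). At AT5G42895, ath-b10r1-13688 (chromosome 5, 17196692 to 17197485) held 48, 65, 81 and 49 counts in −Fe, against 125, 240, 114 and 153 in +Fe. These groups were separate as well, with +Fe replicate 2 far above the rest, and the log2 fold change was -1.22 ± 0.42 (SE), or -0.68 without +Fe replicates 2 and 4.

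The other 2 at no gene were ath-b10r1-8137 (chromosome 3, 9739295 to 9740691) and ath-b10r1-5304 (chromosome 2, 10254755 to 10256157). The first held 160, 247, 176 and 184 counts in −Fe, against 225, 443, 373 and 505 in +Fe, and its groups overlapped through +Fe replicate 1. The second held 64, 145, 108 and 112 counts in −Fe, against 222, 265, 190 and 229 in +Fe, with no overlap. Their log2 fold changes were -0.85 ± 0.28 and -0.93 ± 0.32 (SE), and that of ath-b10r1-8137 was -0.31 without +Fe replicates 2 and 4.

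**Figure D4:**
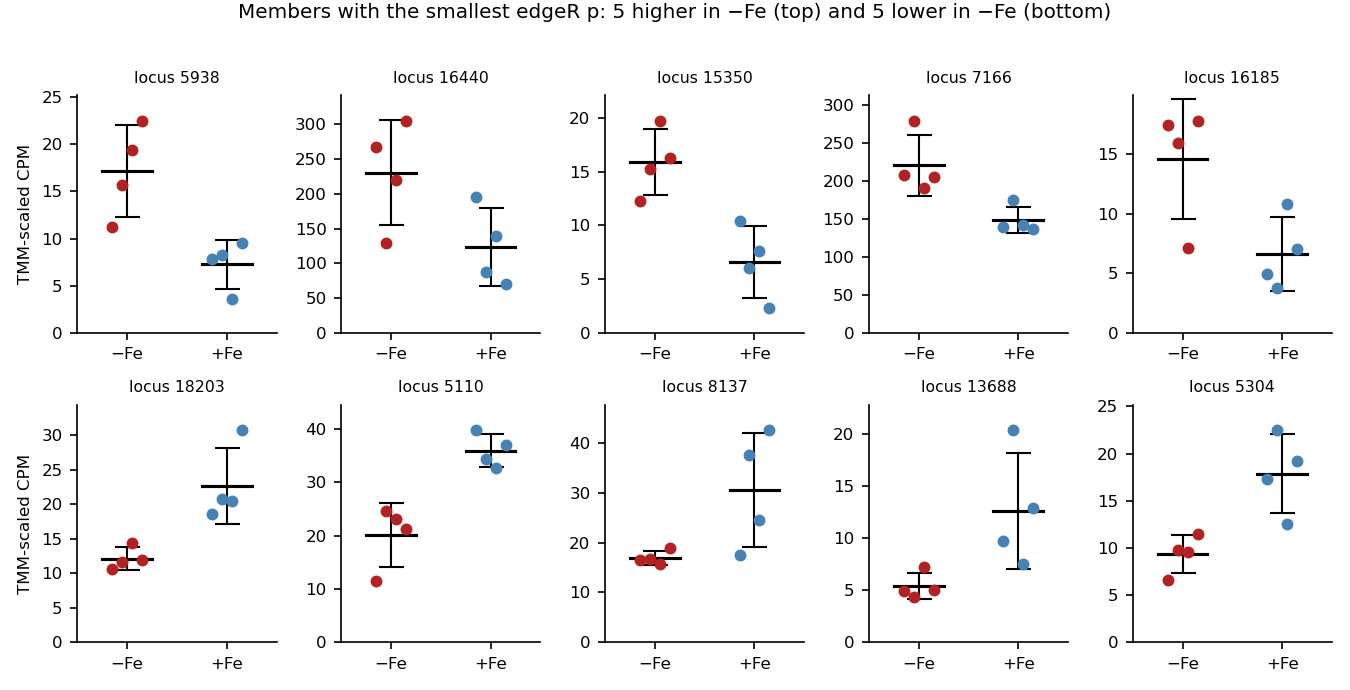
TMM-scaled CPM (y axes from 0) of the 5 members with the smallest p among those higher in −Fe (top row) and the 5 among those lower in −Fe (bottom row), each panel named by the last digits of the locus name. Points are libraries (−Fe red, +Fe blue), thick bars means and whiskers SD, n = 4 each; the groups are separate at 3 loci of the top row and 4 of the bottom row, and edgeR's adjusted p was 0.645 at each.

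Iron homeostasis genes were represented by 6 of the 41 listed, at 7 members. None passed the test, and none reached an unadjusted p under 0.05. The locus with the most counts lay at PYE, a bHLH repressor that acts in the pericycle during iron deficiency. There ath-b10r1-9700 (chromosome 3, 17566015 to 17567147) held 105, 338, 272 and 253 counts in −Fe, against 372, 335, 307 and 276 in +Fe. The groups overlapped, and −Fe replicate 1 stood below all others. The level was 20.9 ± 6.83 TMM-scaled CPM in −Fe and 25.2 ± 4.24 in +Fe, with a log2 fold change of -0.27 ± 0.28 (SE; edgeR adjusted p = 0.998).

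bHLH104, an activator upstream of PYE, was touched by 2 members. At its gene alone, ath-b10r1-1795 held 108, 158, 137 and 126 counts in −Fe, against 73, 113, 275 and 217 in +Fe, so that the −Fe libraries lay within the +Fe range. Where a threonine tRNA gene also lies, ath-b10r1-1796 held 69 to 134 counts in −Fe and 91 to 118 in +Fe. BHLH101, one of the iron deficiency-induced subgroup Ib factors, adjoins GLU1 at ath-b10r1-10747, where counts were 82, 57, 26 and 70 in −Fe, against 60, 42, 55 and 73 in +Fe. None of these loci separated the groups.

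Nicotianamine synthases make the chelator that carries iron through the phloem. NAS1 lay at ath-b10r1-10779 (chromosome 5, 1457254 to 1458514), with 69, 88, 65 and 113 counts in −Fe, against 127, 242, 134 and 16 in +Fe. The +Fe values ran both above and below the −Fe range, and the log2 fold change was -0.42 ± 0.52 (SE). NAS3, at ath-b10r1-15595, held 61, 105, 108 and 66 counts in −Fe, against 150, 92, 119 and 36 in +Fe, and its log2 fold change of -0.03 ± 0.46 was close to 0. FER1, the main leaf ferritin for iron storage, had the fewest counts at ath-b10r1-10618 (chromosome 5, 229102 to 230209): 19, 19, 10 and 11 in −Fe, against 11, 25, 43 and 49 in +Fe. The 3 highest values were +Fe replicates 2, 3 and 4, but the log2 fold change of -0.91 carried an SE of 1.08, and the exact permutation p was 0.200.

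Log2 fold changes of the 7 loci ran from -0.91 to 0.28. Their median of -0.14 was close to the -0.12 of all members, against 0.07 for all loci tested. On the TMM scale 2 of 7 were positive, against 38.1% of all members, and with library totals 1 of 7 was. One further gene of metal transport was noticed only after its values were seen: YSL8, of the Yellow Stripe-Like family of metal-nicotianamine transporters, lay at ath-b10r1-18164 (chromosome 1, 17873734 to 17874621). It held 222, 308, 230 and 215 counts in −Fe, against 391, 516, 404 and 493 in +Fe. All −Fe libraries were below all +Fe libraries, and the −Fe values were the more even. The level was 21.6 ± 1.16 TMM-scaled CPM in −Fe and 35.6 ± 8.33 in +Fe (SD, n = 4 each), with a log2 fold change of -0.72 ± 0.25 (SE), an unadjusted p of 0.00703 and an edgeR adjusted p of 0.645. Without +Fe replicates 2 and 4 it was -0.40.

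Genes of the silencing machinery gave 3 members of 23 listed genes. AGO2, an Argonaute with roles in antiviral defence, lay at ath-b10r1-16835 with 182, 214, 204 and 255 counts in −Fe, against 250, 234, 186 and 268 in +Fe. DCL4, the Dicer of trans-acting siRNAs, lay at ath-b10r1-11541 with 175, 256, 211 and 145 counts in −Fe, against 237, 110, 339 and 280 in +Fe. RDR1, an RNA-dependent RNA polymerase, lay at ath-b10r1-15882 with 49, 114, 96 and 28 counts in −Fe, against 109, 103, 92 and 117 in +Fe. All 3 overlapped between groups, RDR1 with 2 low −Fe libraries, and the log2 fold changes of 0.06, -0.09 and -0.45 had unadjusted edgeR p of at least 0.342.

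**Figure D5:**
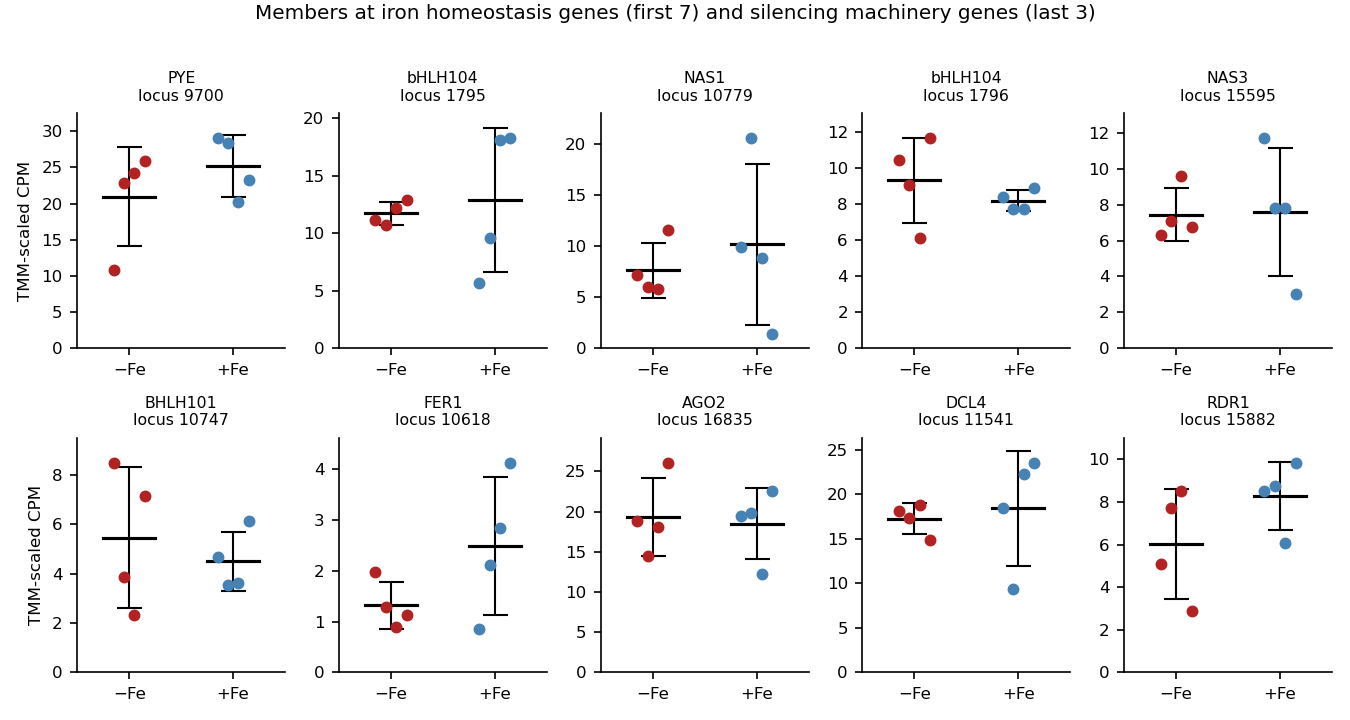
TMM-scaled CPM (y axes from 0) at the 7 members that touch iron homeostasis genes and the 3 that touch silencing machinery genes, each panel headed by the gene and the last digits of the locus name. Points are libraries (−Fe red, +Fe blue), thick bars means and whiskers SD, n = 4 each; the groups overlap in every panel, and the log2 fold changes of the iron loci run from -0.91 to 0.28.

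Secondary siRNAs arise from transcripts that a miRNA has cut, and pentatricopeptide repeat (PPR) genes and auxin receptor genes are their best known Arabidopsis sources outside the TAS genes. Of 15 listed genes, 8 were touched by 10 members, all of which overlap a second locus that the table lists under the gene's own name, so the same reads may be counted there as well. The fullest was ath-b10r1-19129 (chromosome 1, 23388617 to 23390410) at the PPR gene AT1G63080. It held 656, 945, 672 and 543 counts in −Fe, against 625, 720, 617 and 981 in +Fe. The next, ath-b10r1-19134 at AT1G63150, held 549, 637, 464 and 411 counts in −Fe, against 461, 481, 639 and 548 in +Fe. Both showed full overlap.

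At AT1G62910, ath-b10r1-19111 held 201 to 333 counts over the 8 libraries. The auxin receptor genes TIR1 and AFB2, targets of miR393, had fewer counts: ath-b10r1-10566 at TIR1 held 90, 51, 66 and 70 in −Fe, against 149, 66, 64 and 80 in +Fe, and ath-b10r1-8168 at AFB2 held 51, 89, 73 and 66 in −Fe, against 91, 99, 73 and 40 in +Fe. The 10 loci had log2 fold changes of -0.53 to 0.67 with a median of 0.01, 5 of them positive (1 of 10 with library totals), and the smallest unadjusted p was 0.191.

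Among the structural RNA loci outside the leading 10, the snoRNA members with the most counts showed no common direction. The fullest, ath-b10r1-7304 (chromosome 3, 4411149 to 4412087), spans 2 snoRNA genes beside MAPKKK7 and held 3438, 3221, 3738 and 3674 counts in −Fe, against 4900, 2822, 5124 and 4875 in +Fe. By count, all +Fe libraries but replicate 2 were above the −Fe libraries, and replicate 2 was below them. On TMM-scaled CPM the groups overlapped, with −Fe replicate 2 the lowest at 217.8 and +Fe replicate 2 at 239.3. U3B, a gene for the U3 snoRNA of pre-rRNA processing, lay at ath-b10r1-14467 (chromosome 5, 21888227 to 21888769), with 3940, 3358, 2704 and 4448 counts in −Fe, against 5159, 2174, 3336 and 2379 in +Fe. The log2 fold changes were -0.09 ± 0.22 and 0.40 ± 0.26 (SE), and with ath-b10r1-6020, ath-b10r1-19810 and ath-b10r1-3204 the 5 ranged from -0.09 to 0.40 with unadjusted p of at least 0.131.

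Photosynthesis genes of the mesophyll list gave 3 members. RBCS1A, a Rubisco small subunit gene, lay at ath-b10r1-19399 with 543, 973, 417 and 446 counts in −Fe, against 638, 1052, 655 and 299 in +Fe. The light-harvesting gene CAB1, beside NRPA2, lay at ath-b10r1-16720 with 516, 779, 515 and 504 counts in −Fe, against 566, 497, 571 and 280 in +Fe. RBCS1A was highest in replicate 2 of both groups, and CAB1 was separate between groups only on TMM-scaled CPM, with a log2 fold change of 0.46 ± 0.23 (SE; edgeR adjusted p = 0.645). CAB2, at ath-b10r1-16719, held 22 to 93 counts in −Fe and 24 to 86 in +Fe. Any part of leaf cell RNA in the other results was not tested.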

How the data were processed

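Small RNA libraries of phloem exudate from 4 −Fe and 4 +Fe biological replicates were analysed. Per the study's methods, the authors trimmed adapters with cutadapt without a size limit and aligned and quantified reads with ShortStack; the submitters' processing notes name TAIR10 and DESeq2. Versions are not given in the sources used here. The deposited table holds raw counts for each locus and library, 10347644 to 14116739 per library, with a row-sum column; 0 sample columns were left unused. How ShortStack places reads that map to several loci, as tRNA and repeat reads do, affects single loci, and loci that overlap can share reads. Intervals of counting error were not computed, since replicate spread is given.

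Members started outside chromosome 1 at 11.5 to 17.7 Mb, 2 at 1.1 to 7.2, 3 at 10.3 to 17.3, 4 at 1.5 to 6.3 and 5 at 9 to 16 Mb. The members and gene lists were chosen with earlier results of these data known. Gene names came from the RefSeq gene table of TAIR10.1, used by overlap of at least 1 nt on either strand. It gives gene spans, so exons and introns were not distinguished. Counts do not carry strand.

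Loci with at least 10 counts over 8 libraries entered edgeR 4.0.16 (quasi-likelihood test, TMM factors, Benjamini-Hochberg adjustment over 17722 loci; R 4.3.3, limma 3.58.1), called at an adjusted p under 0.1 and a log2 fold change of 0.5. The SE of a log2 fold change is its size divided by the square root of F. Single loci also had exact two-sided permutation tests (70 arrangements). Alternatives were DESeq2 1.42.0, a replicate block, other size factors and filters, other count minimums and leaving out libraries. Leaving out +Fe replicates 2 and 4 together was chosen after seeing the data. Fits were also run on simulated data to check the code. The changes put in were larger than any described here, so that check does not bear on smaller ones. The named members were the 10 with the highest mean CPM, the 5 with the smallest p in each direction, the 5 with the largest and the 5 with the smallest spread, the 5 fullest of each structural RNA class, those at listed genes and those nearest the limits; YSL8 was added after its values were seen. No locus sequence is shown, since no genome was used here.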

Additional observations from a re-analysis of the deposited data

Results flagged for a closer look

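Within groups of 4 libraries, 112 sets of values were examined for a single library far from the other 3, and 6 were found, close to the 5.6 that chance gives. At the glutamic acid tRNA loci ath-b10r1-1700 and ath-b10r1-9934, −Fe replicate 1 was low, at 1261 CPM against 1741 to 1776 CPM and at 871 CPM against 1191 to 1231 CPM in the other −Fe libraries. At AGO2 (ath-b10r1-16835), −Fe replicate 4 was high, at 19.4 CPM against 16.9 to 17.2 CPM. At the PPR gene AT1G63400 (ath-b10r1-19147), −Fe replicate 4 was low, at 8.74 CPM against 15.2 to 16.1 CPM. At the snoRNA cluster ath-b10r1-6020, +Fe replicate 2 was low, at 205.6 CPM against 269 to 278 CPM. At BHLH101 (ath-b10r1-10747), +Fe replicate 4 was high, at 6.98 CPM against 4.06 to 4.25 CPM.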

How the results depend on the processing

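No member was called by edgeR under any other normalization or filter tried, with 1 library left out, with another count minimum or with adjusted p under 0.05. DESeq2 called 34 loci, among them 1 member, ath-b10r1-18203 (adjusted p = 0.0994; range over alternatives 0.0994 to 1.00). DESeq2 also gave 50 members (1.90%) higher and 143 (5.43%) lower at an unadjusted p under 0.05, against backgrounds of 4.67% and 2.65%. A replicate block called 3 loci, among them 1 member, the snoRNA locus ath-b10r1-16440 (adjusted p = 0.0109, log2 fold change 0.93; range of adjusted p over alternatives 0.0109 to 1.00), and gave 57 members higher and 60 lower with a median of -0.07. The backgrounds for that block were 2.67% higher and 0.908% lower. The numbers were not taken to pair the libraries, since deviations of same-numbered libraries correlated at only 0.01, 0.05, 0.09 and 0.03 over the members, although over all loci tested, at 0.01 to 0.05, each −Fe library correlated best with its own number (2 of 4 over the members), a hint from the data and not from the design. With library totals, 4 members (0.152%) were higher and 162 (6.14%) lower at an unadjusted p under 0.05, against backgrounds of 3.88% and 3.31%. The members' median log2 fold change was then -0.31. Relative to all loci tested it was -0.19, against -0.18 with TMM factors. Leaving out 1 library gave 0 to 1 called loci, 22 to 56 members higher, 33 to 99 lower and medians of -0.14 to -0.054. The 22 higher (0.834%, background 3.87%) and 33 lower (1.25%, background 1.17%) came without −Fe replicate 4. The 56 higher (2.12%, background 5.58%) and 99 lower (3.75%, background 2.30%) came without +Fe replicate 1. The 1 call came without +Fe replicate 2 and the median of -0.054 without +Fe replicate 4. Members higher numbered 41 without −Fe replicate 2, 56 without +Fe replicate 1, 52 without +Fe replicate 2 and 47 without +Fe replicate 4. Without +Fe replicates 2 and 4 together there were 5 called loci, 74 members higher (2.81%, background 3.48%) and a median of -0.026. The cause of these changes was not tested. With at least 50% of the locus inside the gene, 604 members lay at protein-coding genes, against 989. The share difference was -1.14 to -0.29 percentage points and the number of members 2652 to 3053 with 1 library left out. For the 10 loci with the smallest p, direction held in all 150 refits, and 148 stayed on the same side of the threshold. These loci were picked for their p in the same libraries that the refits reuse. A held direction is therefore no independent support for them. The median SE of 0.40 limits the log2 difference that could be seen at a typical member.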
